A study of Mus musculus with 4 samples.

Results

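The Rel/NF-kB family and its partners were examined through every spot annotated to the subunit genes Rel, Rela, Relb, Nfkb1 and Nfkb2, the inhibitor genes Nfkbia, Nfkbib and Nfkbie, or the adaptor gene Traf2. Of these 9 genes, 8 had a spot on the array and Nfkb1 had none. They were covered by 11 of the 16281 spots, with 3 spots for Traf2, 2 for Rel and 1 for each of the others. RNA came from the CA1 field of the hippocampus of young male C57BL/6J mice, and both compared groups had received MK-801, a blocker of the NMDA type of glutamate receptor, at a labelled dose of 300 micrograms per g body weight. That is the labelled figure, and it is far higher than doses in common use. The MK C+S mice were injected 1 h before contextual fear conditioning, which paired 2 min in an unfamiliar chamber with a foot shock of 1 s at 0.5 mA, given 3 times. The MK mice had the injection alone. Their RNA was taken at the matching times of 1, 2, 4 and 6 h after the last shock of the conditioned mice.

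Each time had a single 2-colour array, and MK C+S was always the red and MK the green channel, so dye and conditioning cannot be told apart. With 4 arrays in all, precision is limited by their number. The labels do not give the number of animals behind an array. The deposited values were log ratios, read here as log10 of MK C+S over MK. Neither the base nor the direction is stated, and red over green, the usual order, makes the direction likely but not settled. Ratios carry no level, so whether the RNA held the markers that define CA1 could not be checked. In bulk tissue, fewer cells of a type and less RNA per cell cannot be told apart.

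NF-kB is a family of transcription factors that bind DNA as pairs of subunits. In resting cells the IkB inhibitors hold these pairs in the cytoplasm, and signals from receptors reach the IKK kinase complex through adaptors such as TRAF2. IKK marks the inhibitors for destruction and frees the subunits to enter the nucleus, where the inhibitor genes are among their targets. In neurons the pathway can respond to glutamate receptors, NMDA receptors included, and mice without Rel are impaired in contextual fear memory.

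Several of these genes are known targets of their own pathway. Promoters are shown for Nfkbie, Nfkbia and Rel, the members with the highest gene values at 6 h, and for Nfkb2, the next highest. They are given as the 250 bases before the start of transcription (RefSeq, GRCm38.p6, written on the strand of the gene). Rel stood high through 1 of its spots, while spot 16221 read -0.13 at 6 h. All those shown hold a match to the motif described next, and none without it is printed. Whether a match goes with a 6 h value was not tested. Capitals mark matches to the kappaB consensus, the 10-base motif that NF-kB dimers bind, searched on both strands. Nfkb2 has several annotated starts and the first listed is shown. The regions are chr17:45555450-45555699 on the plus strand for Nfkbie, chr12:55492648-55492897 on the minus strand for Nfkbia, chr11:23770970-23771219 on the minus strand for Rel and chr19:46304487-46304736 on the plus strand for Nfkb2.
Nfkbie: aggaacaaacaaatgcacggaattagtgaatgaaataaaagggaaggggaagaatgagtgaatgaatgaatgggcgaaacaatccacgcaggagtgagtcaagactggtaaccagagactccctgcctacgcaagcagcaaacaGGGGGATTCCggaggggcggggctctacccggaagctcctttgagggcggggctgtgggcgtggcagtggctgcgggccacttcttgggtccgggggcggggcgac
Nfkbia: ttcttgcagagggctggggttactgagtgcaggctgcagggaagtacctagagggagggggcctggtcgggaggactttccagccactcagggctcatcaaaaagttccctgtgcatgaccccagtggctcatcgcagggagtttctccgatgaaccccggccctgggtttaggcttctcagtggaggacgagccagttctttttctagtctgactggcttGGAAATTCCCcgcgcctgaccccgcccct
Rel: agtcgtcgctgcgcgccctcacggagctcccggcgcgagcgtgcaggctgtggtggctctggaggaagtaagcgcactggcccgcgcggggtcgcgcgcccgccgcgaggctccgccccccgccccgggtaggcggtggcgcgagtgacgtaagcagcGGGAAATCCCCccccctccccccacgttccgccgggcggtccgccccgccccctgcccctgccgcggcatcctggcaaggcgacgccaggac
Nfkb2: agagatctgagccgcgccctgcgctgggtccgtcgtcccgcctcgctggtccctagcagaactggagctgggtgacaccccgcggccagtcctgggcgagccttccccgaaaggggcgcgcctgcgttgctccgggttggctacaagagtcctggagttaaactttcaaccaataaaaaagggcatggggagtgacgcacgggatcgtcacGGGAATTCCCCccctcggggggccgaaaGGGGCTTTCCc

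Promoters of 7 of the 8 member genes were found in the RefSeq table, and 4 of the 7 genes (Nfkbie, Nfkbia, Rel and Nfkb2) held a match in a window that ran from 250 bases before to 50 bases after a start. Among all 32851 promoters of this length, 8.46% held one, and by gene the share was 9.55% of 27025. The match began 106 bases before the start in Nfkbie, 29 in Nfkbia and 92 in Rel. The Rel capitals join matches on both strands that overlap by all but 1 base, and the first run of capitals in Nfkb2 does the same. With a stricter motif of GGGA and TTCC with 2 free bases between them, on both strands, Nfkbia and Nfkb2 held a match, as did 1.63% of all genes with a promoter. The stricter matches of Nfkb2 lay in windows at its other starts and not in the one printed. The Traf2, Nfkbib and Rela windows held neither motif. A match is a string of letters and not a measured site.

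Across the members, most log ratios stayed within 2-fold, and the exceptions were Nfkbib, 1 of the Traf2 spots, and Nfkbie and 1 Rel spot at 6 h. Of the 44 spot values (11 spots on 4 arrays), 38 were measured, 6 were exact zeros, read as not measured, and 7 passed 2-fold, which is 0.301 on the log10 scale. Among all spots over the 4 times, 12.8% passed 2-fold, and 5 of the 7 came from Nfkbib and Traf2 spot 12631. At 1 h, 1 member spot of 10 measured was past 2-fold upward and 1 downward, against 5.32% and 4.14% of all spots and 9.45% in either direction. None of 9 passed at 2 h, where 7.94% of all spots did, and 1 of 9 passed, downward, at 4 h, where 5.03% did so and 7.97% in either direction. At 6 h, 2 of 10 passed upward and 2 downward, while 12.7% and 12.8% of all spots did so on that array and 25.4% in either direction.

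**Figure D1:**
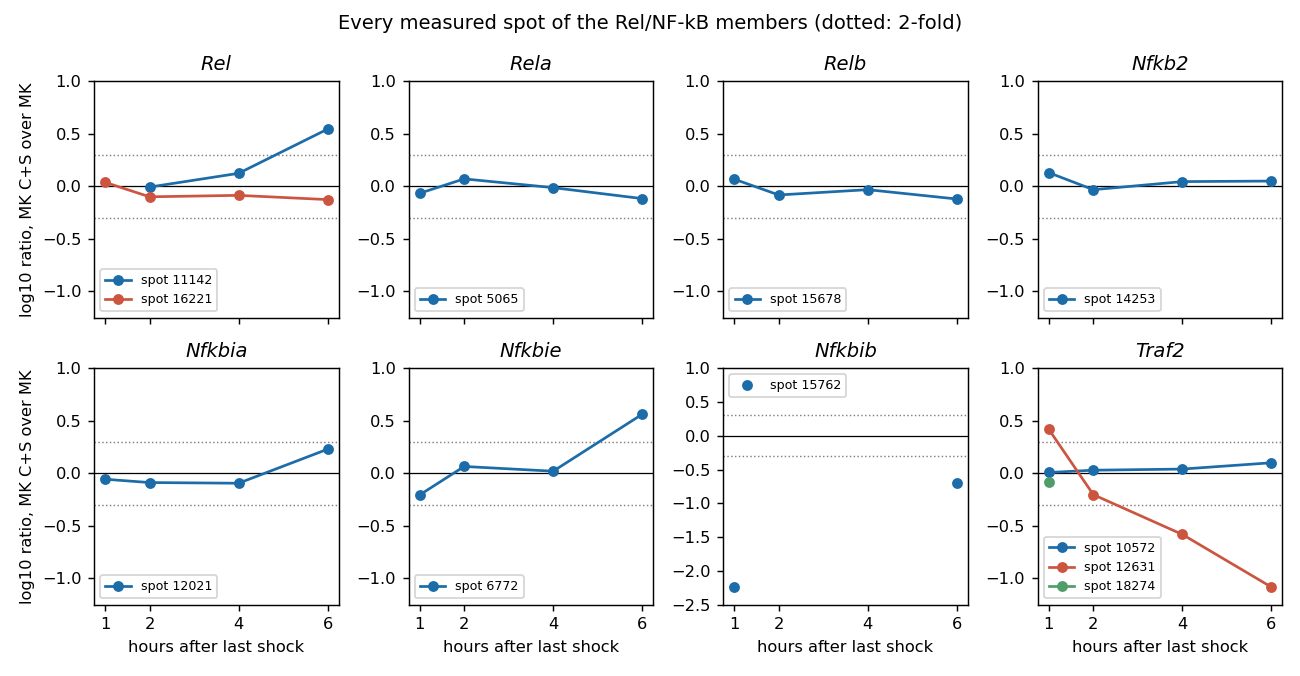
Log10 ratio of MK C+S over MK (vertical axis, with a wider scale for Nfkbib) against hours after the last shock, for every measured spot of the 8 member genes. Dotted lines mark 2-fold. Rela, Relb and Nfkb2 stay within 2-fold, Nfkbie and 1 Rel spot are at 0.56 and 0.54 at 6 h, and Traf2 spots 12631 and 10572 are at -1.08 and 0.0998 at 6 h.

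Among the subunits, Rela encodes p65, a subunit with a transactivation domain found in the most common NF-kB dimer. Its log10 ratios at the times in order were -0.067, 0.070, -0.013 and -0.12. All 4 lay between percentiles 29.2 and 68.3 of the spots on their array. Relb encodes the subunit that pairs with p52 in the non-canonical pathway. Its log10 ratios were 0.067, -0.083, -0.033 and -0.12 at 1, 2, 4 and 6 h, also all within 2-fold. Nfkb2 encodes p100, the precursor of p52, which also acts as an inhibitor. Its log10 ratios of 0.13, -0.033, 0.044 and 0.049 at 1, 2, 4 and 6 h were above 0 on 3 of 4 arrays, with the highest at percentile 79.8 of spots. For these 3 subunits the values changed sign between times and none reached 2-fold.

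Rel encodes c-Rel, the subunit tied to contextual memory, and was measured by 2 spots annotated to different sequence records. Spot 11142 had no ratio at 1 h and log10 ratios of -0.0077 at 2 h, 0.12 at 4 h and 0.54 at 6 h. The last of these corresponds to 3.49-fold and to percentile 94.5 of the spots at 6 h. Spot 16221 gave 0.037, -0.10, -0.087 and -0.13 at 1, 2, 4 and 6 h and so lay below 0 where spot 11142 was highest. The spots differed by 0.67 at 6 h, and 87.0% of 3167 pairs of spots for the same gene on that array differed by less. The gene value of Rel at 6 h, 0.21, is the mean of these 2 spots, and at 1 h it rests on spot 16221 alone.

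The inhibitors Nfkbia and Nfkbie were both below 0 at 1 h and highest at 6 h. Nfkbie encodes IkB-epsilon, an inhibitor induced by NF-kB with a delay in other cell types. Its log10 ratios ran from -0.21 at 1 h through 0.065 and 0.020 at 2 and 4 h to 0.56 at 6 h. The 6 h value, 3.64-fold, was the highest member value in the data and lay at percentile 94.9 of spots on that array, and the 1 h value was at percentile 10.2. The 10 spots nearest in number to that of Nfkbie, 5 on each side, ranged from -0.22 to 0.14 at 6 h, so the value was not shared by its neighbours.

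Nfkbia encodes IkB-alpha, the inhibitor that is destroyed and remade fastest. Its log10 ratios were -0.057, -0.088 and -0.095 at 1, 2 and 4 h and 0.23 at 6 h. The 6 h value stood apart from the other 3 but stayed below 2-fold, at percentile 83.1 of the spots on an array whose spread was wide. Its 8 measured neighbours ranged from -0.12 to 0.24 at 6 h.

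Nfkbib encodes IkB-beta, an inhibitor that is destroyed and remade more slowly. It had a ratio at 1 and 6 h only, and its single spot (15762) read -2.24 at 1 h and -0.70 at 6 h. Taken at face value these are 174-fold and 5.02-fold lower in MK C+S. At 1 h, however, the next 3 spot numbers, annotated to Hes1, Lhx1 and Kcnj12, read -2.08, -2.89 and -2.96. These genes are not members of the pathway and are named because they sit beside the spot. Their spots, like that of Nfkbib, had no ratio at 2 and 4 h. Of the 7 measured spots within 5 on either side, 4 were past 2-fold downward at 1 h, and 6 of 9 were at 6 h. Further out at 1 h, spot numbers 6 to 12 after Nfkbib read from -0.25 to -3.11. Those 7 to 13 before it read from 0.062 to 0.63. The running median over 51 spots at that place was 0.0033 at 1 h and -0.57 at 6 h, and with it removed the Nfkbib values were -2.24 and -0.13. How much of the 1 h value belongs to Nfkbib RNA was not tested, and the gene was not among those tested for the mean or the slope, which had a value on all 4 arrays.

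**Figure D2:**
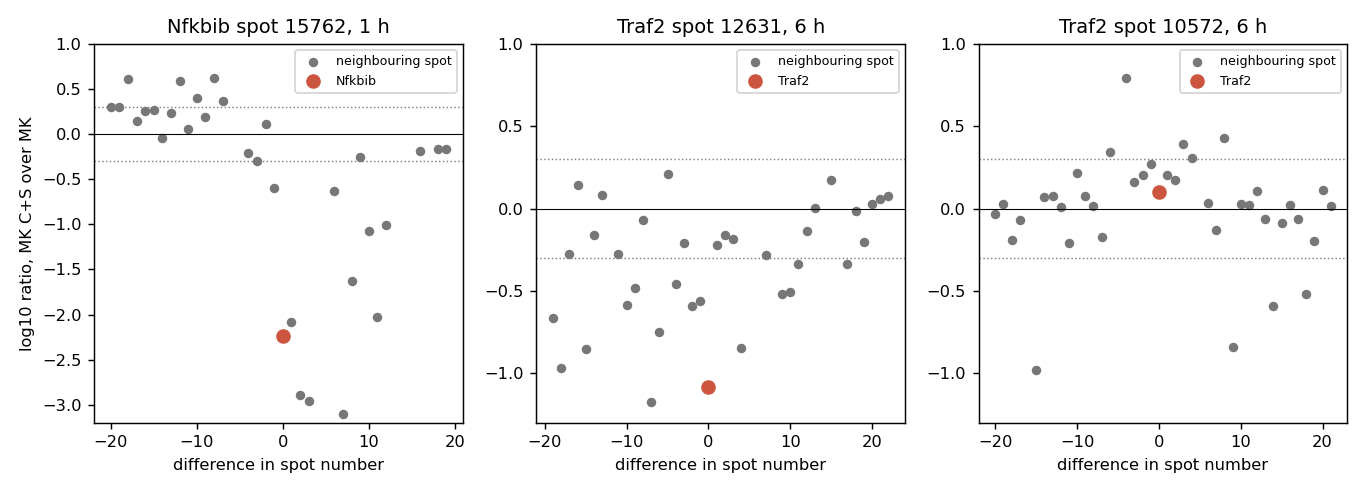
Log10 ratio of MK C+S over MK (vertical axis, with a wider scale in the first panel) against the difference in spot number from a member spot, for Nfkbib at 1 h and the Traf2 spots 12631 and 10572 at 6 h. Dotted lines mark 2-fold. The 3 spot numbers after Nfkbib read between -2.08 and -2.96, and 9 of the 10 nearest neighbours of Traf2 spot 12631 are below 0.

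Traf2 encodes an adaptor that carries signals from tumour necrosis factor receptors to IKK, and its spots gave opposite pictures. Spot 12631 had log10 ratios of 0.42, -0.20, -0.58 and -1.08 at the times in order. That is 2.61-fold higher in MK C+S at 1 h, and 3.81-fold and 12.1-fold lower at 4 and 6 h. It passed from percentile 97.4 of spots at 1 h to 0.758 at 6 h, the widest swing among the members measured on all 4 arrays. Spot 10572, annotated to the same sequence record, gave 0.0076, 0.029, 0.040 and 0.0998 at 1, 2, 4 and 6 h, all above 0 and all within 2-fold. Spot 18274, annotated to another record, was measured at 1 h only, at -0.085.

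Spots 12631 and 10572 differed by 0.41 at 1 h and by -0.23, -0.62 and -1.18 at 2, 4 and 6 h (12631 minus 10572). Among all pairs of spots that share a record, 88.6% of 395 pairs differed by less at 1 h, 67.1% of 773 at 2 h, 98.6% of 789 at 4 h and 97.8% of 737 at 6 h. At 6 h, 9 of the 10 spots nearest to 12631 were below 0, 4 of them past 2-fold, with a running median over 51 spots of -0.24. At 1 h 4 of its 10 neighbours were past 2-fold upward. At 4 h none of the 10 passed 2-fold and they ranged from -0.22 to 0.13. With the running median removed, spot 12631 kept a 6 h value of -0.84 and a 4 h value of -0.64. Around spot 10572, all 9 measured neighbours were above 0 at 6 h, with a median of 0.20 and 3 past 2-fold upward. The part of the neighbouring spots in the Traf2 values was not tested further.

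**Figure D3:**
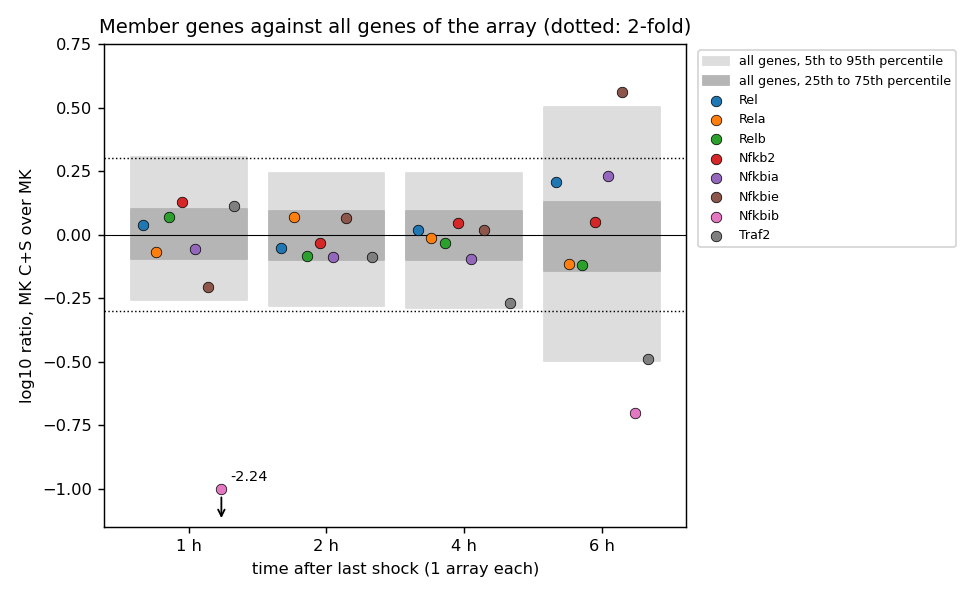
Log10 ratio of MK C+S over MK of each member gene (mean of its spots) on each array, drawn over the central ranges of all genes on that array. Dotted lines mark 2-fold, and Nfkbib at 1 h (-2.24) lies off the scale. At 2 and 4 h every measured member is within 2-fold, and the grey bands are widest at 6 h.

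By gene, with spots averaged, the members' median log ratio was -0.0097 at 1 h over 8 genes, -0.054 at 2 h and -0.013 at 4 h over 7 genes each, and -0.034 at 6 h over 8 genes. The medians of all genes were 0.0013, -0.00074, -0.00095 and -0.0062 at the same times. Member values above 0 numbered 4 of 8, 2 of 7, 3 of 7 and 4 of 8. Past 2-fold were Nfkbib at 1 h (8.47% of all genes in either direction), no member at 2 or 4 h (6.58% and 7.07%), and Nfkbie, Nfkbib and Traf2 at 6 h (21.9%).

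The mean over the 4 times asks for a difference shared by all times, and takes the spread between times as its error. Of the 7 members with a value on all arrays, none reached an adjusted p under 0.05 in limma, as was so for all 8553 genes tested (0.0% called). Without adjustment 973 genes, or 11.4%, had a p under 0.05, and no member was among them. Traf2 had the largest mean in size, at -0.18 ± 0.26 (SD over 4 arrays, limma adjusted p 0.498), negative on 3 of 4 arrays. Leaving out 1 h gave -0.28, and leaving out 6 h gave -0.081. By spot, the Traf2 means were -0.36 for 12631 and 0.044 for 10572, the latter above 0 on all 4 arrays. Nfkbie followed at 0.11 ± 0.32 (adjusted p 0.729). Rel was at 0.052 ± 0.11, Nfkb2 at 0.047 ± 0.066, Relb at -0.042 ± 0.082, Rela at -0.032 ± 0.080 and Nfkbia at -0.0027 ± 0.16. Each gene mean was smaller than its spread over the times. Rel spot 16221 alone had a mean of -0.069, opposite in sign to the gene mean.

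The slope on hours asks whether the difference between MK C+S and MK drifted with time. No gene of 8553 passed at an adjusted limma p under 0.05 (0.0% called), while 1250, or 14.6%, had an unadjusted p under 0.05. Traf2 had a slope of -0.12 log10 units per h (SE 0.027, unadjusted p 0.00385, adjusted p 0.148 in limma) and Nfkbie of 0.13 per h (SE 0.036, unadjusted p 0.00821, adjusted p 0.174). Nfkbia was at 0.054 (SE 0.031) and Rel at 0.039 (SE 0.029), and Relb, Rela and Nfkb2 at -0.027, -0.018 and -0.0055. When each spot was tested on its own over 10042 spots, Traf2 spot 12631 had a slope of -0.28 per h (SE 0.037), the 10th lowest p of all, with an adjusted limma p of 0.0964. Spot 10572 had 0.017 (SE 0.027, adjusted p 0.855), so the Traf2 slope came from 1 of its spots. Of the Rel spots only 16221 was on all 4 arrays, and its slope was -0.025 (SE 0.028), opposite in sign to the gene slope. Without the 4 h array the Nfkbie slope, 0.14 per h, passed with an adjusted limma p of 0.0365, in a fit that called 418 of 8628 genes. That fit draws a line through the remaining arrays only, so its error rests on very little. The fits without the 1 h, 2 h or 6 h array called 0 genes each. Without the 6 h array it was 0.061 per h (adjusted p 0.792).

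Genes whose pattern over the 4 arrays was nearest to each member were found by the root mean square difference of log ratios among 8552 other genes. Nearest to Traf2 were Rcvrn (0.035), Pon3 (0.038) and Ccdc83 (0.048), each positive at 1 h and negative at 2, 4 and 6 h. The Traf2 values matched are averages of spots, with spot 12631 at -1.08 and spot 10572 at 0.0998 at 6 h. Nearest to Nfkbie was Acad8 (0.039), which was at 0.49 at 6 h. Ccdc34 was nearest to Nfkbia (0.011), Mad2l1bp to Rel (0.013), Ppt1 to Rela (0.012), Actn3 to Relb (0.012) and Anapc7 to Nfkb2 (0.012). With 4 points per gene and so many candidates, a close match is a description only.

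Around the members, 6 lists of other pathway genes held 106 genes, of which 86 were on the array and 76 had a value at all 4 times. None of the 76 passed limma at an adjusted p under 0.05, in the mean or in the slope. Unadjusted, 1 had a p under 0.05 in the mean and 9 in the slope, 5 with positive and 4 with negative slopes. That is 1.32% and 11.8% of them, against 11.4% and 14.6% of all genes. Below, list medians are those of the mean log ratio over the 4 times, beside -0.0095 for all genes tested. In each list the 4 genes with the largest absolute mean are named, and that choice favours values of 1 sign over the times. Where a gene is said to be above or below 0 throughout, this was not compared with the rest of the genes.

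Receptors and ligands, the starting points of the pathway, had a median of -0.014 over 19 genes. Tnfrsf11a, the receptor RANK, was at 0.16 ± 0.21 (SD, n = 4 arrays), the cytokine gene Lta at -0.155 ± 0.17, the cytokine gene Il1b at 0.12 ± 0.10 and Tnfrsf1b, the second receptor for tumour necrosis factor, at -0.12 ± 0.086. Il1b, averaged over its 3 spots, was above 0 on all 4 arrays and Tnfrsf1b and Lta below 0 on all 4, but their adjusted limma p values were 0.466 each. The Il1b spot 1321 was at -0.077 and -0.039 at 2 and 4 h.

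Adaptors and ubiquitin enzymes between receptors and IKK had a median of 0.021 over 14 genes, 8 of them positive. Tnip1, whose product binds the inhibitor A20, was at 0.13 ± 0.20, with 2 spots at 0.73 and 0.095 at 6 h. Traf5, a relative of Traf2, was at 0.093 ± 0.025 and positive on every array as the average of its 2 spots, which read -0.19 and 0.37 at 6 h. Ube2n, which builds the ubiquitin chains that activate IKK, was at 0.086 ± 0.11, and Birc2, a ubiquitin ligase that binds TRAF2, at -0.083 ± 0.13. The 3 Birc2 spots read 0.032, -0.72 and -0.094 at 6 h.

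Kinases of the IKK step had a median of 0.051, with 8 of 10 positive. Ikbkg encodes NEMO, the regulatory subunit of IKK, and its single spot read 0.20, 0.061, 0.0052 and 0.63 at 1, 2, 4 and 6 h. Like Nfkbie, also a single spot, it was highest at 6 h, on the array where 21.9% of all genes passed 2-fold. The share of all genes that were highest at 6 h was not counted. The Ikbkg mean of 0.22 ± 0.28 had an adjusted limma p of 0.466. Map3k14, which encodes NIK, the kinase of the non-canonical pathway, was at 0.13 ± 0.096 and positive on all 4 arrays as an average, though its spot 8323 read -0.034 at 4 h. Ikbke was at 0.092 ± 0.16 and Map3k8 at 0.076 ± 0.14. Map3k7, which encodes the IKK kinase TAK1, is named after its values were seen. Its spot 15691 read -1.79, -1.83 and -1.85 at 1, 2 and 6 h and had no ratio at 4 h. Values this low rest on a single measured spot whose neighbours were not examined. How much of them belongs to Map3k7 RNA was not tested.

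Atypical IkB proteins and nuclear regulators had a median of -0.033, with 5 of 6 negative. Nkap was at -0.12 ± 0.070, Nkiras1, whose product binds inhibitor proteins, at -0.095 ± 0.074, Nkiras2 at 0.051 ± 0.047 and Bcl3, a nuclear partner of p50 and p52, at -0.051 ± 0.21. Nkap and Nkiras1 were negative and Nkiras2 positive on all 4 arrays, which their choice by size of mean makes more likely.

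Inducible targets had a median of 0.027, with 13 of 22 positive. The chemokine gene Cxcl1 was at -0.23 ± 0.24, but its 2 spots were past 2-fold in opposite directions at 6 h, at -0.77 and 0.57, and its 1 h and 2 h values rest on a different single spot each. Irf1, an interferon regulatory factor gene, was at -0.14 ± 0.20, the adhesion gene Vcam1 at 0.13 ± 0.072 and Lcn2, which encodes an iron-binding secreted protein, at 0.13 ± 0.23. Vcam1 was the 1 pathway gene with an unadjusted limma p under 0.05 in the mean (0.0436, adjusted p 0.434), and it was positive on all 4 arrays. Microglia markers had a list median of 0.056 with 12 of 14 means positive, and endothelial markers -0.082 with 6 of 10 negative. Astrocyte markers had a list median of 0.039 over 11 genes and CA1 pyramidal markers -0.0074 over 6. No marker passed at an adjusted p under 0.05, as was so for all 8553 genes tested. Unadjusted, 3 of 14 microglia, 3 of 10 endothelial, 1 of 11 astrocyte and 2 of 6 CA1 markers had a limma p under 0.05 in the mean. Of all genes 11.4% did. The part of these markers in the pathway values was not tested.

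Genes described as NF-kB targets in neurons had a median of 0.012 over 5 genes. Igf2 was at 0.54, 0.16, -0.12 and 0.073 at 1, 2, 4 and 6 h. At 1 h 6 of 7 measured choroid plexus markers, Igf2 among them, passed 2-fold upward, and their part in the Igf2 value was not tested. Prkaca, a catalytic subunit gene of protein kinase A, was at -0.090 ± 0.12 with 2 spots at -0.50 and -0.034 at 6 h, Dlg4, which encodes the synaptic scaffold PSD-95, at -0.020 ± 0.18 and Bdnf, a neurotrophin gene, at 0.013 ± 0.078.

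**Figure D4:**
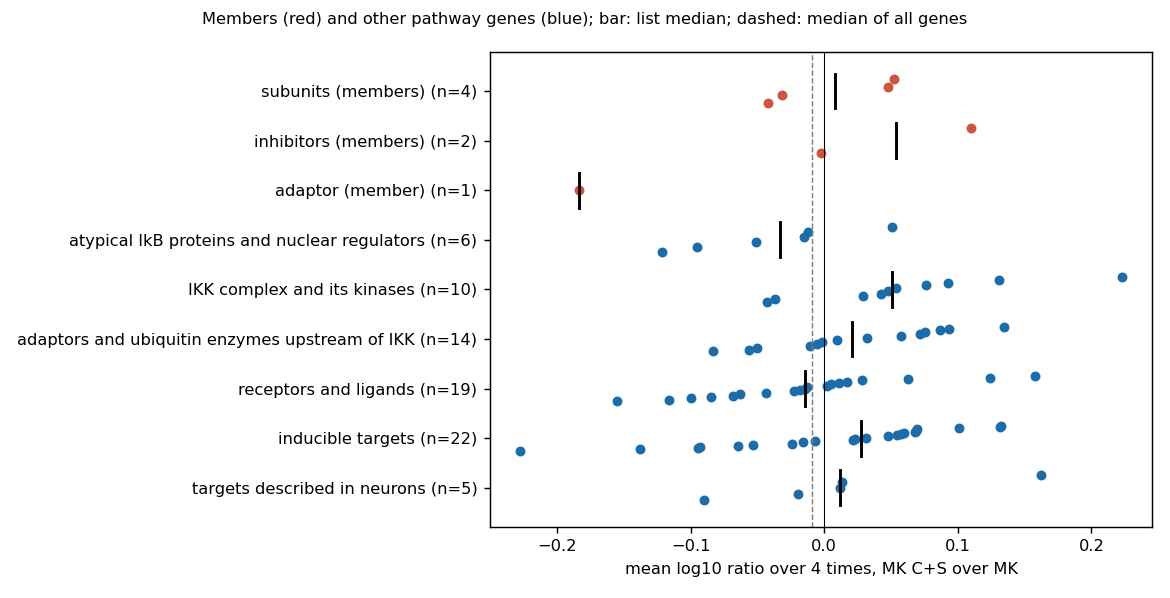
Mean log10 ratio of MK C+S over MK over the 4 times (horizontal axis) for each member gene and each other pathway gene with a value on all arrays, by role. Black bars are list medians and the dashed line is the median of all genes. All pathway means lie between -0.23 and 0.22. Traf2 at -0.18, an average of spots with means of opposite sign, is the lowest member.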

How the data were processed

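RNA of MK C+S and MK was compared on 4 arrays with 2 dyes, each placed at its labelled time. The values deposited by the authors are log ratios per spot, with no base stated, and log10 was assumed from their range of -3.10 to 1.58. The software, background correction and normalization behind them are not stated in the labels, and spot intensities were not analysed here.

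Exact zeros (22.7%, 9.34%, 7.39% and 10.0% of 16281 spots at 1, 2, 4 and 6 h) were read as not measured, and the median of the other spots (0.0055, -0.00038, 0.00073 and -0.0054) was subtracted. The deposited columns had medians of 0. A platform annotation named 13738 spots with 1 gene, 52 with several and 2491 with none, and only the first were used. Measured spots of a gene were averaged, which gave 8553 genes a value on all 4 arrays.

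With 1 array a time, values at a time have no test. Spots of the same gene varied with a pooled SD of 0.225, 0.204, 0.168 and 0.329 on the arrays in order of time. The slope on hours and the mean over times were tested two-sided in limma 3.58.1 under R 4.3.3 (functions lmFit and eBayes), with Benjamini-Hochberg adjustment over all genes. Both fits were also run on simulated data, with planted effects larger than any member gene mean or gene slope. Whether effects of the sizes seen in the members would be called was not tested. The labels tell of no separate replicates, so the error is the spread between times. The members and gene lists were chosen with earlier results of these data known. Named were all members, per list the 4 genes with the largest absolute mean, and the nearest genes (3 for Traf2, 1 for the others). Alternatives covered the fold threshold, log base, centring, zeros, spot summary, scaling, weights, filters and leaving out each array.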

Additional observations from a re-analysis of the deposited data

Results flagged for a closer look

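The 6 h value of Nfkbia, 0.23, lay apart from its values on the other 3 arrays, with a gap to the nearest that filled most of the range. This comparison treats the 4 times as 1 group, and chance alone sets apart about 1 in 20 such groups of values. It was run on every member gene with a value on all 4 arrays and on single spots of Traf2 and Rel. Only Nfkbia was flagged, and so many looks make a flag by chance more likely than 1 in 20. The 6 h array also had the widest spread of the 4. Traf2 spot 12631 passed 2-fold in opposite directions at different times, at 0.42 at 1 h against -0.58 at 4 h and -1.08 at 6 h. With 1 array a time, the difference between single times was not tested.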

How the results depend on the processing

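Over the alternatives run, 149 of 150 recomputed member values at a single time moved by less than the SD between spots of a gene. The exception was Nfkbib at 6 h, at -0.13 with the running median removed. That SD, 0.168 to 0.329 by array, is larger than most member values, so even a change of sign can stay under it. Rel at 1 h, for instance, went from 0.037 to -0.055 with the running median removed. Some alternatives, such as the median of spots for a gene with a single spot, could not move a value. The count is therefore a weak check of the small values. The Nfkbib values at 1 h were among the 149. The running median at that spot was 0.0033 at 1 h, so removing it could hardly change the value, low neighbours or not. Other thresholds and log bases set the counts past 2-fold. At 1, 2, 4 and 6 h they came to 2299, 2457, 2377 and 4029 genes at 1.5-fold, 226, 176, 178 and 1091 at 3-fold, 22, 23, 23 and 93 with base-2 logs and 69, 59, 65 and 438 with natural logs, against 776, 668, 729 and 2211 as reported. Spots on their own gave 1016 at 2 h. The 4 member gene values past 2-fold became 8 at 1.5-fold, 1 with base-2 logs, 2 with natural logs and 7 by spot.

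For the mean over times, the 0 genes called became 2 with array weights, 1 with genes on at least 3 arrays, 3 by spot with the running median removed (chosen after seeing the data), and 0 to 1 with an array left out, with no member among them. For the slope, leaving out an array gave 0 to 418 genes. The 418, of 8628 tested, came without the 4 h array, and Nfkbie was among them. The Nfkbia mean was 0.0059 with the running median removed and ranged from -0.080 to 0.028 with an array left out, the Nfkbie mean from -0.040 (without 6 h) to 0.22 and the Traf2 mean from -0.28 (without 1 h) to -0.081 (without 6 h). With an array left out, gene means of the other members kept their sign. They ranged from 0.00047 to 0.088 for Rel, -0.066 to -0.0033 for Rela, -0.079 to -0.016 for Relb and 0.020 to 0.074 for Nfkb2. By spot, Rel spot 16221 had a mean of -0.069 and Traf2 spot 10572 of 0.044, each opposite in sign to its gene mean. Slopes ranged from -0.00032 to 0.066 for Rel, -0.047 to 0.0093 for Rela, -0.019 to 0.021 for Nfkb2, -0.011 to 0.079 for Nfkbia, 0.061 to 0.15 for Nfkbie, -0.037 to -0.0096 for Relb and -0.12 to -0.10 for Traf2 with an array left out. Slopes also changed sign for Relb (0.0040) and Nfkb2 (0.0081) with the running median removed and for Nfkb2 with array weights (0.0042). By spot, so did Rel (spot 16221, -0.025) and Traf2 (spot 10572, 0.017). The cause of these changes was not tested. The stricter motif was found in 2 member genes in place of 4. Each value is a ratio of MK C+S over MK within 1 array, so the comparison is already paired by array. With 1 array a time, no further pairing was possible.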
